A study of Mus musculus with 20 samples.

Results

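At embryonic day 11.5 of the mouse, 4870 regions of the genome carried ISL1 peaks in 2 or 3 of the 4 ISL1 libraries, lay more than 1 kb from the ends of protein-coding genes, overlapped H3K27ac and held no peak of POU4F1 replicate 1. They are called members below. The members were selected on measured peaks: overlapping peaks of the 4 ISL1 lists were merged, and a region was kept if it had a peak in exactly 2 or 3 lists, none of POU4F1 replicate 1, not a peak of both H3K27me3 replicates 2 and 3, and a peak of both H3K27ac replicates 2 and 3. Of 214116 merged ISL1 regions, 193703 were in a single list, 18866 in 2 or 3 lists and 1547 in all 4. The 18866 fell to 16468 without POU4F1 replicate 1, to 15457 without regions marked by H3K27me3 in both libraries, to 13448 away from gene ends and to the 4870 members with H3K27ac, which are 2.27% of all merged regions.

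The series holds 20 CUT&Tag libraries of CVGs (read here as cochleovestibular ganglia, the ganglia of hearing and balance) from C57BL/6J mouse embryos at E11.5, and the labels name no other genotype and no treatment. In CUT&Tag an antibody holds a transposase at a chromatin protein, and the DNA around it is cut out and sequenced. The groups used were ISL1_26 (1 library), ISL1_70 (3), POU4F1 (2), H3K4me3 (2), H3K27me3 (3) and H3K27ac (3), each with 1 peak list per library, whereas 6 IgG libraries were not used. What the numbers 26 and 70 mean is not given in the labels, and neither is the number of embryos per library.

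ISL1 is a LIM homeodomain transcription factor and POU4F1 a POU homeodomain factor, and both are made in newly born sensory neurons, where they are known to act on common targets. H3K27ac, acetylation of a lysine of histone H3, marks active promoters and enhancers, H3K4me3 marks active or poised promoters, and H3K27me3 is laid down by Polycomb complexes over silenced genes. Regions with H3K27ac away from gene starts are commonly taken as candidate enhancers, stretches of DNA that raise the transcription of a gene at a distance. A ganglion also holds glia, progenitors, vessels and mesenchyme, and in lists from whole tissue it cannot be told apart whether ISL1 and H3K27ac sat on the DNA of the same cells.

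Sequence was at hand for promoter windows (250 bases before to 50 after an annotated RefSeq start, GRCm38.p6) and for miRNAs, and some members overlapped them although they lay over 1 kb from the outer ends of genes. The windows below are those with the strongest ISL1 peaks among the 78 members whose ISL1 summit fell inside a window. They are shown because they are the members whose ISL1 summit can be read at the level of bases. Capitals mark the homeodomain core TAAT in either orientation.
Stra6 start: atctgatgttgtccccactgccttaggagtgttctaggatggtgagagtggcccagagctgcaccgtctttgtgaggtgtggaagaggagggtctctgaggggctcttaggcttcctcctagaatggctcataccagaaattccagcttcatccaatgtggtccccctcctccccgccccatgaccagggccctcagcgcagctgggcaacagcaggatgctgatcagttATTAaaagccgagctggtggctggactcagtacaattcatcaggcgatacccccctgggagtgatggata
Gm51646 start: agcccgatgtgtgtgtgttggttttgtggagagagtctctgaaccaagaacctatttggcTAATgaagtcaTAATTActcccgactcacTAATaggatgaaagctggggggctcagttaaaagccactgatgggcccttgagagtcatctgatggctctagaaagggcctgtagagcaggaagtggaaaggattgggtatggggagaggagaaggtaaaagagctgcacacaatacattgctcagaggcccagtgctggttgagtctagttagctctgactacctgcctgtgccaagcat
Zfp787 start: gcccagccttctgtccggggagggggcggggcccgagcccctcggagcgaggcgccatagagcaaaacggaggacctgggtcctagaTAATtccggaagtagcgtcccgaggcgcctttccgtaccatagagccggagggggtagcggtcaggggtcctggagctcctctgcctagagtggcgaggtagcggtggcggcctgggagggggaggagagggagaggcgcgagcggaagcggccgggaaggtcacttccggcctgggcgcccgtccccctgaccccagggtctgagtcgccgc
Slc25a25 start: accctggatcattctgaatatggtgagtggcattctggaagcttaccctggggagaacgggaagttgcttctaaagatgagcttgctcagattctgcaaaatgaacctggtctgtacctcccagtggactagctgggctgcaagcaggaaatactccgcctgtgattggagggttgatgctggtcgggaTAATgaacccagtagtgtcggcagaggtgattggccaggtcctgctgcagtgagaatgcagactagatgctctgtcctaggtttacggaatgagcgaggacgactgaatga

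The first window (chr9:58128838-58129137, plus strand) starts Stra6, which encodes a membrane receptor for retinol uptake. Its member (chr9:58128509-58129706) had its ISL1 summit 133 bp before the start. The window of the lncRNA Gm51646 (chr1:132559381-132559680, plus strand) belongs to a member 4.57 kb from an end of Nfasc, the gene of the axon initial segment protein neurofascin. The window holds 4 cores, and 1 of them is part of CTAATG, a sequence of the kind bound by LIM homeodomain factors. The windows of Zfp787, a zinc finger gene (chr7:6155916-6156215, minus strand), and Slc25a25, which encodes a mitochondrial carrier (chr2:32431102-32431401, minus strand), hold 1 core each, and the ISL1 summits lay 15 and 18 bp after the start. Peaks of H3K4me3 replicate 2 covered the members of Gm51646, Zfp787 and Slc25a25 but not that of Stra6.

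A second set of sequences belongs to a member that covers the hairpins of Mir96 and Mir183, which with Mir182 form a miRNA cluster known for its expression in the neurons and hair cells of sensory organs. The mature 5p strands are shown with the seed, bases 2 to 8, in capitals, since the seed pairs with target RNAs.
miR-183-5p: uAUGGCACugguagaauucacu
miR-96-5p: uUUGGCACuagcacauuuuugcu
miR-182-5p: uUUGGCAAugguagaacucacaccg

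The seeds of miR-183-5p and miR-96-5p are the same at 6 of 7 bases, as are those of miR-96-5p and miR-182-5p, and those of miR-182-5p and miR-183-5p at 5 of 7. The member (chr6:30167981-30169820) reaches over the hairpins of Mir96 and Mir183 and ends 1.99 kb from that of Mir182, all on the minus strand. The nearest end of a protein-coding gene, Nrf1, is 14.5 kb away. Of the 1005 hairpins in the RefSeq table, 3 members overlapped 4, the other two hairpins being Mir6352, inside the ephrin receptor gene Epha4, and Mir802.

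Among the lists, the 2 longest ones named most of the members. A peak of ISL1_26 replicate 1 was present in 85.1% of the members, of ISL1_70 replicate 1 in 77.1%, of ISL1_70 replicate 3 in 41.5% and of ISL1_70 replicate 2 in 25.2%. These lists hold 95719, 80293, 41668 and 24573 peaks, so the shares stand in the order of the list lengths. The commonest combination was ISL1_26 replicate 1 with ISL1_70 replicate 1 alone, which made up 1887 members (38.7%), followed by these with ISL1_70 replicate 3 (799 members). In all, 3461 members had peaks in 2 lists and 1409 in 3, with median widths of 864 and 1230 bp.

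The members' peaks ranked above the middle of the ISL1 and H3K27ac lists in which the rule asked for a peak. Peaks were ranked by −log10 q within their own list, where a percentile near 0 is the strongest peak. The median percentile of members was 16.4 in ISL1_26 replicate 1, 19.6 in ISL1_70 replicate 1, 34.6 in ISL1_70 replicate 2 and 44.4 in ISL1_70 replicate 3. For H3K27ac it was 19.8 in replicate 2 and 13.6 in replicate 3. By the authors' fold enrichment, the members' median in ISL1_70 replicate 3 was 16.0, below the 20.7 of the whole list. In the other lists named here it was above that of the list. These ranks and folds describe peaks that chose the members and were not tested.

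**Figure D1:**
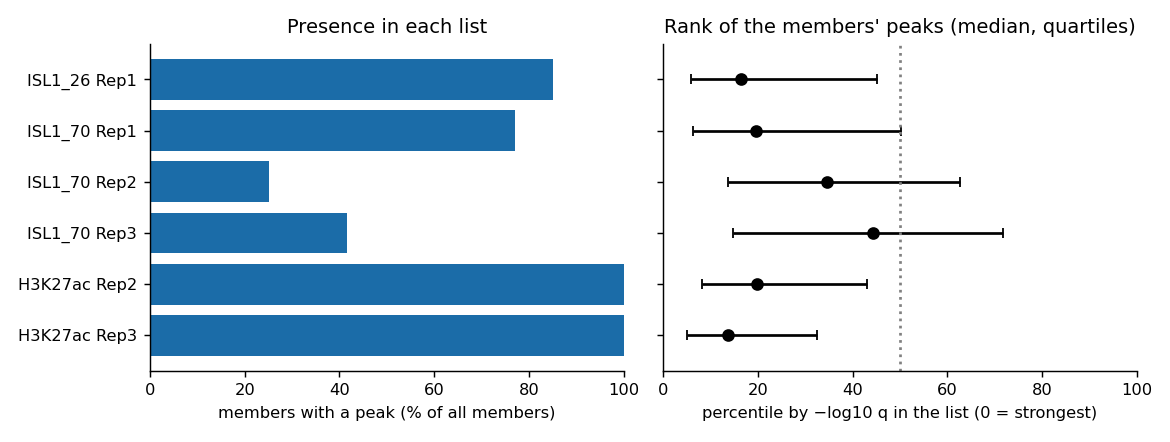
Left, bars give the percent of the 4870 members with a peak in each ISL1 and H3K27ac list in which the rule asked for one, and right, points and bars give the median and quartiles of the percentile of the members' peaks in that list, where 0 is the strongest peak. The medians run from 13.6 (H3K27ac replicate 3) to 44.4 (ISL1_70 replicate 3), left of the dotted line at 50.

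The overlap of peaks that made a member keeps the ISL1 summits of different libraries near one another, so their spacing was only described. The median distance between summits ran from 209 bp (ISL1_26 replicate 1 with ISL1_70 replicate 2) to 264 bp (ISL1_70 replicates 1 and 3) over the 6 pairs of lists, and 21.5% to 27.8% of the pairs lay within 100 bp. From the best ISL1 summit to the nearest H3K27ac summit the median was 245 bp in replicate 2 and 280 bp in replicate 3. The ISL1 summit itself was inside an H3K27ac peak of replicate 2 in 81.4% of members (95% Wilson interval 80.3 to 82.5) and of replicate 3 in 76.0% (74.7 to 77.1). The rule required each member to overlap peaks of both replicates, which favours such shares.

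Among members in 3 lists, the strongest lay inside Chd9 and Plxnd1. The first (chr8:90861033-90862448) is inside Chd9, a chromatin remodeller, and its peaks stood at percentile 0.358 in ISL1_26 replicate 1, 0.486 in ISL1_70 replicate 1 and 0.276 in ISL1_70 replicate 3, with no peak in ISL1_70 replicate 2. The authors' fold enrichments there were 69.3, 62.4 and 175. The second (chr6:115984603-115986009) is inside Plxnd1, a semaphorin receptor, at percentiles 0.383, 0.235 and 0.598 of ISL1_26 replicate 1 and ISL1_70 replicates 1 and 2. Both stood below percentile 1 in every list that called them, and each was missing from 1 list.

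The next members were nearest to Gm4131, Prrxl1, Zeb1, Cxcr4, Gm35364, Ncam1, Daam1 and Jph1, with mean percentiles from 0.587 to 0.840. Prrxl1 encodes a homeodomain factor of somatosensory neurons, and its member (chr14:32633350-32634790) lies inside the gene, at percentiles 1.51, 0.177 and 0.191 in ISL1_26 replicate 1 and ISL1_70 replicates 1 and 2. Cxcr4 encodes a chemokine receptor that guides migrating cells, and its member lies 229 kb away. Ncam1 encodes a neural adhesion protein, and its member lies 190 kb away. H3K27ac under these 10 members was not uniformly strong: the replicate 2 percentile ran from 0.475 at Zeb1 to 18.5 at Prrxl1. Of the 10, only those of Daam1 and Jph1 had a peak of H3K4me3 replicate 2.

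Members in 2 lists included some with ISL1 peaks at the very top of their lists. The member 104 kb from Stim2, a calcium sensor gene (chr5:54225223-54227000), was at percentile 0.0522 of ISL1_26 replicate 1 and 0.108 of ISL1_70 replicate 1, yet it had no peak in ISL1_70 replicates 2 and 3. Its H3K27ac peaks stood at percentiles 33.6 and 11.5 in replicates 2 and 3. Members inside Cers6, Ank3 and Plcl1 and one 67.4 kb from Rgmb followed, with mean percentiles from 0.281 to 0.615.

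The limit of 1 kb fell within a near-continuous run of distances. The members just inside were nearest to Sbk1 (1006 bp), Gtf2e2 (1010 bp) and Ccnjl (1016 bp), and the regions just outside to Ppp3ca (997 bp), Efs (996 bp) and Eya2 (994 bp). The member at Sbk1 had peaks at percentiles 0.948 and 0.641 of ISL1_26 replicate 1 and ISL1_70 replicate 1.

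Of the members, 2970 (61.0%, 59.6 to 62.3) lay inside a protein-coding gene, and the median distance to the nearest gene end was 31.2 kb (quartiles 10.8 and 84.6). The table of genes gives no exons, so introns and exons were not told apart. The rule used the 1 kb limit but not the position inside a gene, which was therefore compared with other classes of regions. Fisher's exact tests were two-sided, and p-values were adjusted by the Benjamini-Hochberg method over 22 comparisons. The units of these tests are regions of the same libraries, so the p-values say nothing of the variation from one embryo to another.

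Members lay inside genes more often than the 5502 regions of the same rule with no H3K27ac in replicate 2 or 3 (43.1%, odds ratio 2.06, Fisher's exact test adjusted p = 3.4e-73) and less often than 18269 distal H3K27ac regions with no factor peak (70.2%, odds ratio 0.665, adjusted p = 3.8e-33). Those 18269 are merged H3K27ac peaks, whereas members are merged ISL1 peaks. The second difference turned with 1 library: without H3K27ac replicate 2 the odds ratio was 1.06 (exact test adjusted p = 0.0246). Of the 1168 regions of the same rule with a POU4F1 replicate 1 peak, 55.8% lay inside a gene (odds ratio 1.24, 95% interval 1.09 to 1.41, exact test adjusted p = 0.00182). This call was lost without ISL1_26 replicate 1 (odds ratio 1.17, exact test adjusted p = 0.0635) and without ISL1_70 replicate 1 (1.15, 0.0779).

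Lists that did not choose the members showed what else sat on them. H3K4me3 replicate 2 had a peak in 385 members (7.91%, 7.18 to 8.70), H3K27ac replicate 1 in 200 (4.11%), H3K27me3 replicate 1 in 332 (6.82%), POU4F1 replicate 2 in 157 (3.22%) and H3K4me3 replicate 1 in 87 (1.79%). H3K27ac replicate 1 is a short list of 8855 peaks, against 106628 and 168144 in replicates 2 and 3. The library labelled H3K4me3 replicate 1 shared most of its covered bases with H3K27me3 replicate 2 (Jaccard index 0.742, against 0.0360 with H3K4me3 replicate 2), and 39.7% of the peaks of H3K27me3 replicate 1 overlapped H3K27ac replicate 2, against 24.1% and 15.1% for replicates 2 and 3 of that mark. The results on these 2 libraries are given for the lists as labelled.

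The absence of POU4F1 rests on 1 library. POU4F1 replicate 2 had peaks in 3.22% of members (2.76 to 3.76) and in 3.42% of the regions of the same rule with a POU4F1 replicate 1 peak (2.52 to 4.63). The odds ratio was 0.939 with an interval of 0.661 to 1.33 (exact test adjusted p = 0.748), so a difference in the second POU4F1 list was not shown, and the interval does not exclude one within these bounds. The POU4F1 lists themselves shared 545 peaks, 1.87% of the shorter list. Among regions without H3K27ac the share with POU4F1 replicate 2 was 1.78% (odds ratio 1.84, exact test adjusted p = 3.36e-06).

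H3K4me3 replicate 2 was found at members more often than at ISL1 regions without acetylation, and its share did not differ past the threshold from that of regions with POU4F1. The share was 1.25% in regions without H3K27ac (odds ratio 6.76, interval 5.22 to 8.75, exact test adjusted p = 3.65e-65), 9.25% in regions with POU4F1 replicate 1 (odds ratio 0.843, interval 0.674 to 1.05, adjusted p = 0.159) and 71.8% in the 1458 regions of the same rule within 1 kb of gene ends. The comparison with POU4F1 regions passed the threshold when regions with a peak of either POU4F1 list were left out of the members (odds ratio 0.794, exact test adjusted p = 0.0435) and without H3K27ac replicate 2 (0.725, 0.00587) or 3 (0.757, 0.0136). Among distal H3K27ac regions with no factor peak the share was 2.76% (odds ratio 3.02, interval 2.63 to 3.46, exact test adjusted p = 7.58e-52). Without H3K27ac replicate 2 this odds ratio was 5.84, and that against regions without acetylation 4.38. In regions without a factor the 1 kb limit held for the whole H3K27ac region, in members for the ISL1 region alone. What this adds to the odds ratio of 3.02 was not tested. The classes also differed in width, and wider regions can meet more peaks. Median widths were 953 bp in members, 727 bp without H3K27ac, 1128 bp with POU4F1 replicate 1 and 855 bp without a factor. Among regions of 500 to 1500 bp, every odds ratio stayed within 1.5 times of its value over all widths.

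The other lists gave like contrasts against regions without acetylation. H3K27ac replicate 1 had a peak in 4.11% of members and 0.345% of those regions (odds ratio 12.4, exact test adjusted p = 1.09e-44), and in 4.20% of regions with POU4F1 replicate 1 (odds ratio 0.978, interval 0.712 to 1.34, adjusted p = 0.870). The first contrast is no independent support, since the rule set members and those regions apart by the same mark in replicates 2 and 3. The odds ratio of 12.4 was 6.74 without ISL1_26 replicate 1, 6.88 without H3K27ac replicate 2, 8.07 without H3K27ac replicate 3 and 19.3 without ISL1_70 replicate 2. H3K27me3 replicate 1, which overlapped H3K27ac replicate 2 more than the other lists of its mark, had a peak in 6.82% of members and 0.582% of regions without H3K27ac (odds ratio 12.5, exact test adjusted p = 6.81e-74). That odds ratio was 5.72 without H3K27ac replicate 2, 7.24 without replicate 3 and 39.7 with only peaks of −log10 q of at least 2. The members' H3K27me3 replicate 1 peaks had a median percentile of 99.8, where tied peaks all take the lowest rank of the tie. Their median fold enrichment was 1.99, as in the whole list, so they were not shown to be weaker than its other peaks. Against regions with POU4F1 replicate 1 (8.99%) its odds ratio was 0.741 (interval 0.589 to 0.931, exact test adjusted p = 0.0145). That call was lost without any 1 of the 4 ISL1 libraries, with exact test adjusted p from 0.0978 without ISL1_70 replicate 3 (odds ratio 0.822) to 0.769 without ISL1_26 replicate 1, where the odds ratio turned to 1.05.

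**Figure D2:**
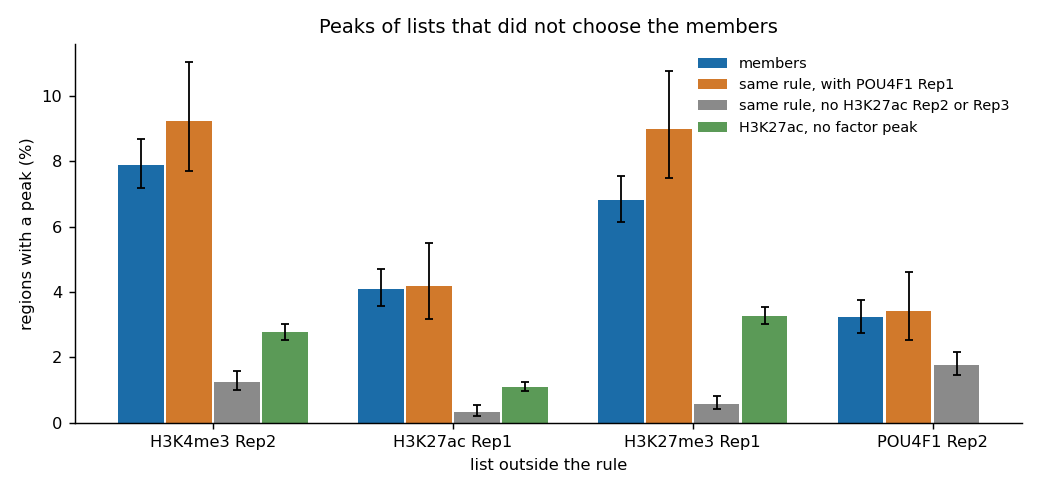
Bars give the percent of regions with a peak of each list that did not choose the members, with 95% Wilson intervals, for members and for 3 other classes of regions (POU4F1 replicate 2 is not shown for H3K27ac regions without a factor peak, which lack it by definition). H3K4me3 replicate 2 stands at 7.91% of members and 9.25% of regions with POU4F1 replicate 1, above 1.25% and 2.76% in the other classes.

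The H3K27ac peaks of members were wider and ranked higher than those of the distal H3K27ac regions without a factor, which was not tested since H3K27ac chose the members. Their median width in replicate 2 was 1048 bp against 546 bp, and their median percentile 19.8 against 53.1. H3K27ac peaks under members could also reach a gene end, which the other class did not allow. The shares with H3K4me3 replicate 2 were then compared within bands of that percentile. In the strongest band, percentiles 0 to 10, it was 15.4% of 1622 members (13.7 to 17.3) and 14.0% of 833 other regions (11.9 to 16.6). It was 6.42% and 5.22% from 10 to 20, 3.19% and 2.22% from 20 to 40, and 3.0% (2.16 to 4.14) and 1.68% (1.46 to 1.94) from 40 to 100. The intervals overlap in each band from 0 to 40 and do not in the weakest. Over the strongest 20% of H3K27ac replicate 2 the shares were 11.9% and 7.80% (odds ratio 1.60, Fisher's exact test adjusted p = 7.64e-07), against an odds ratio of 3.02 over all regions. Of these regions, 1622 of 2666 members but 833 of 2846 others were in the band from 0 to 10. The pooled contrast therefore still mixes unlike acetylation ranks. The bands were added after the values were seen.

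Members at annotated starts often had H3K4me3, though most members with H3K4me3 were not at one. Of the 4870 members, 254 (5.22%) overlapped a RefSeq promoter window, 143 of them one of a protein-coding gene and 111 an lncRNA window alone, so the limit on distance to gene ends did not remove inner and lncRNA starts. H3K4me3 replicate 2 had a peak in 88 of the 143 (61.5%), in 24 of the 111 (21.6%) and in 273 of the 4616 members with no window (5.91%, 5.27 to 6.63). Members with a start had H3K4me3 more often than those without (odds ratio 12.5, Fisher's exact test adjusted p = 2.23e-60), and coding starts more often than lncRNA starts (odds ratio 5.80, adjusted p = 1.3e-10), with p-values adjusted over these 2 comparisons. The share with a start was 5.31% in regions with POU4F1 replicate 1 and 0.891% in regions without H3K27ac. Of the 385 members with H3K4me3 replicate 2, 112 (29.1%) overlapped a window and 273 (70.9%) did not. This split was also added after the values were seen.

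The share with H3K4me3 replicate 2 was lower farther from gene ends, out to 500 kb. It was 24.4% of the 623 members at 1 to 5 kb, 8.61% of 1266 at 5 to 20 kb, 4.96% of 1954 at 20 to 100 kb, 2.59% of 964 at 100 to 500 kb and 3.17% of the 63 beyond. The intervals of the last 2 bands overlap, and those of the first 4 do not overlap their neighbours.

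**Figure D3:**
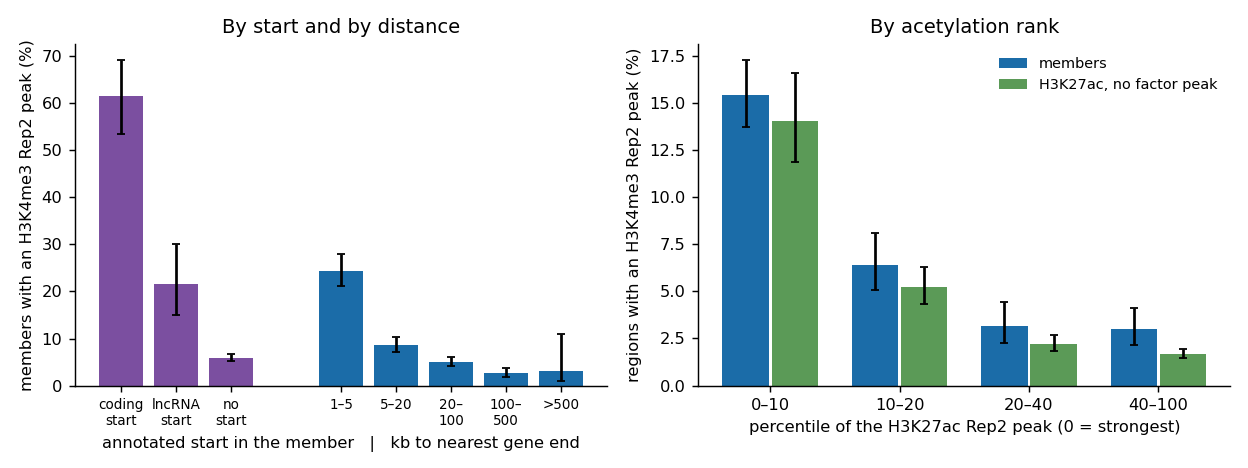
Left, bars give the percent of members with an H3K4me3 replicate 2 peak by the annotated start they overlap (purple) and by distance to the nearest gene end in kb (blue), and right, the same percent by the percentile of the H3K27ac replicate 2 peak for members and for H3K27ac regions with no factor peak, all with 95% Wilson intervals. The share falls from 61.5% at coding starts to 5.91% without a start, from 24.4% at 1 to 5 kb to 2.59% at 100 to 500 kb, and from 15.4% to 3.0% over the acetylation bands.

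The promoter windows of the 254 members held more G and C than other distal windows. The median GC content was 56.5%, against 48.7% in the 13344 other windows over 1 kb from gene ends and 52.7% in all 32851 windows. The GC box GGGCGG, searched on both strands like all motifs here, was in 48.8% of the member windows (42.7 to 54.9), in 17.2% of the other distal windows and in 35.7% of all. The core TAAT was in 48.0%, 69.2% and 58.0%, and CTAATG, which contains it, in 7.09%, 9.04% and 7.36%. The neuronal E-box CAGATG, bound by proneural factors, was in 20.1%, 21.3% and 17.2%. In the windows shown above the GC content ran from 49.0% at Gm51646 to 70.3% at Zfp787. These shares were not tested, and they move with base composition, since TAAT has no G or C and GGGCGG no A or T.

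The locus of Mir183 held the longest peaks of 2 lists. Its H3K27ac replicate 3 peak was 18.8 kb long, the longest of 168144, its H3K4me3 replicate 2 peak was 7.53 kb, the longest of 22425, and its H3K27ac replicate 2 peak was 11.5 kb, the fifth longest of 106628. The member over Mir96 and Mir183 stood at percentile 1.18 of ISL1_26 replicate 1, 5.21 of ISL1_70 replicate 1 and 64.0 of ISL1_70 replicate 3, with no peak in ISL1_70 replicate 2. A second member (chr6:30174089-30174859) under the same H3K27ac peaks stood at percentiles 3.70 and 69.6 of the first 2 lists.

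**Figure D4:**
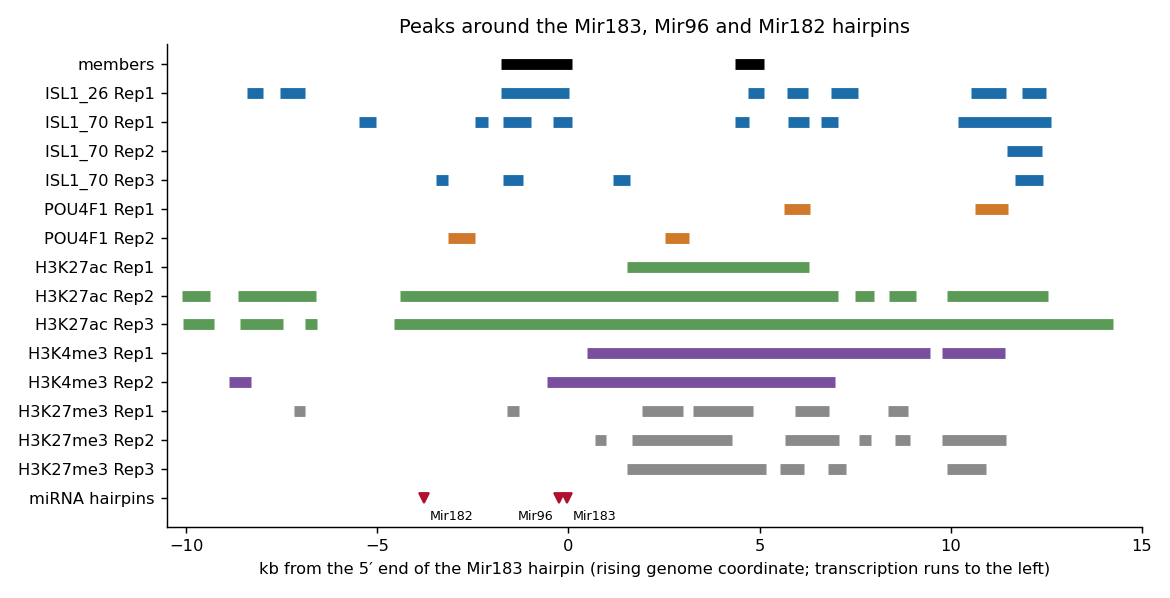
Each line of bars shows the authors' peaks of a library around the hairpins of Mir182, Mir96 and Mir183 (triangles), in kb from the 5′ end of Mir183, with the 2 members on top. The H3K27ac replicate 3 peak spans 18.8 kb, the members lie at its left and middle, and the peaks of POU4F1 replicate 1 lie at 5.63 to 6.33 kb and 10.6 to 11.5 kb, outside both members.

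Both factors had further peaks along this locus. POU4F1 replicate 1 had peaks at 5.63 to 6.33 kb and at 10.6 to 11.5 kb from the 5′ end of Mir183, each over ISL1 peaks of ISL1_26 replicate 1 and ISL1_70 replicate 1. Those ISL1 regions are no members. POU4F1 replicate 2 had peaks at other places, at -3.14 to -2.45 kb and 2.52 to 3.14 kb. The longest H3K27me3 peak of replicate 2 there ended at 4.27 kb and that of replicate 3 at 5.15 kb, both within the span of the H3K27ac peaks. Of these 2 lists, the second member, from 4.35 to 5.12 kb, therefore overlapped replicate 3 alone and stayed within the rule. It also overlapped a peak of H3K27me3 replicate 1, from 3.25 to 4.81 kb, at percentile 0.203 of that list.

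Many members lay near another member. With a gap of at most 50 kb, 2497 members (51.3%) fell into 891 clusters of 2 or more, and 484 (9.94%) into 75 clusters of 5 or more. Members under 1 H3K27ac peak count as a cluster too. The same shares were not computed for other classes, so grouping is not shown to be particular to the members. The largest held 23 members over 282 kb on chromosome 8 (chr8:120284019-120565894), nearest to Gins2 (14), which encodes a DNA replication factor, and Gse1 (9). All 23 lay inside Gse1. The 14 nearest to an end of Gins2 were 15.4 to 169 kb from it, and none lay inside Gins2. The next held 16 at Shisal1 and Parvb, 13 at Msi2, 11 at Tacc2, and 9 each at Rgs3, Ttc28, Med13l and Unc5b. The cluster at Unc5b, the gene of a netrin receptor of growing axons, had 1 of its 9 members inside a gene and spanned 175 kb.

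Few genes took many members. At least 1 member was nearest to 2754 of 21887 protein-coding genes (12.6%), 2 or more to 998, and 5 or more to 152, which held 1001 members (20.6%). With a reach of 100 kb from the gene, its body included, members were found for 6967 genes (31.8%). The genes nearest to most members were Zmiz1 (17), Msi2 (15), Gins2 (14), Tacc2 (13), Asic2, Ebf1 and Tenm4 (11 each), and Ajap1, Grik3 and Ldlrad3 (10 each, tied with 5 more genes). The 14 of Gins2, the shortest of these genes, all lay inside Gse1. Zmiz1 encodes a transcriptional coregulator, Msi2 an RNA-binding protein of progenitors and Asic2 a proton-gated ion channel of sensory neurons. The 10 genes were 7.81 to 1088 kb long, and most were also nearest to many acetylated regions without a factor: Zmiz1 was nearest to 33 such regions, Msi2 to 41 and Tenm4 to 31. Asic2 had 11 members against 2 such regions, all 11 inside the gene, and none with H3K4me3 replicate 2.

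Acetylation at gene ends differed between the lists of genes. H3K27ac replicates 2 and 3 both had peaks at an end of 10429 of 21887 genes in all. Of the neuronal lists, this held for 23 of 26 genes of the cytoskeleton and growth cone, 29 of 41 transcription factors of inner ear neurons, 27 of 40 genes of axon guidance and adhesion, 20 of 36 of synapse and excitability and 13 of 25 of neurotrophin signalling. It held for 18 of 20 cell cycle genes, 18 of 20 housekeeping genes, 11 of 20 Schwann cell and neural crest genes, 10 of 24 of otic epithelium, 7 of 20 of mesenchyme, 5 of 20 of muscle and 2 of 20 of endothelium and blood. H3K27me3 peaks were at an end of 4143 of 21887 genes in all. In the neuronal lists they were at 28 of 41 transcription factor genes and 22 of 40 of axon guidance and adhesion. The counts were 21 of 36 for synapse and excitability, 12 of 25 for neurotrophin signalling and 11 of 26 for the cytoskeleton. The other lists ran from 0 of 20 (housekeeping) to 19 of 20 (mesenchyme). How far cells other than neurons contributed to the members was not tested.

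Distal acetylated regions nearest to neuronal genes held a larger share of members than those of genes at large. Over all genes, 4870 of the 23139 regions that were members or distal H3K27ac regions without any factor peak were members (21.0%, 20.5 to 21.6). For genes of 5 neuronal lists together it was 232 of 692 (33.5%, 30.1 to 37.1), and for 7 other lists together 45 of 219 (20.5%, 15.7 to 26.4). Members are merged ISL1 peaks and the others merged H3K27ac peaks, so several members under 1 H3K27ac peak count separately. Set against each class, the neuronal lists were nearest to 232 of 4870 members (4.76%), 78 of the 1168 regions with POU4F1 replicate 1 (6.68%) and 460 of the 18269 regions without a factor (2.52%), so the share was not highest in the members. The difference between members and regions without a factor was smaller among strongly acetylated regions. Among regions whose H3K27ac replicate 2 peak was in the strongest 20% of its list, the shares were 106 of 177 (59.9%, 52.5 to 66.8) for the neuronal lists, 31 of 55 (56.4%, 43.3 to 68.6) for the others and 2666 of 5512 (48.4%) for all genes. These counts describe lists chosen with earlier results known, and the lists were not tested.

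**Figure D5:**
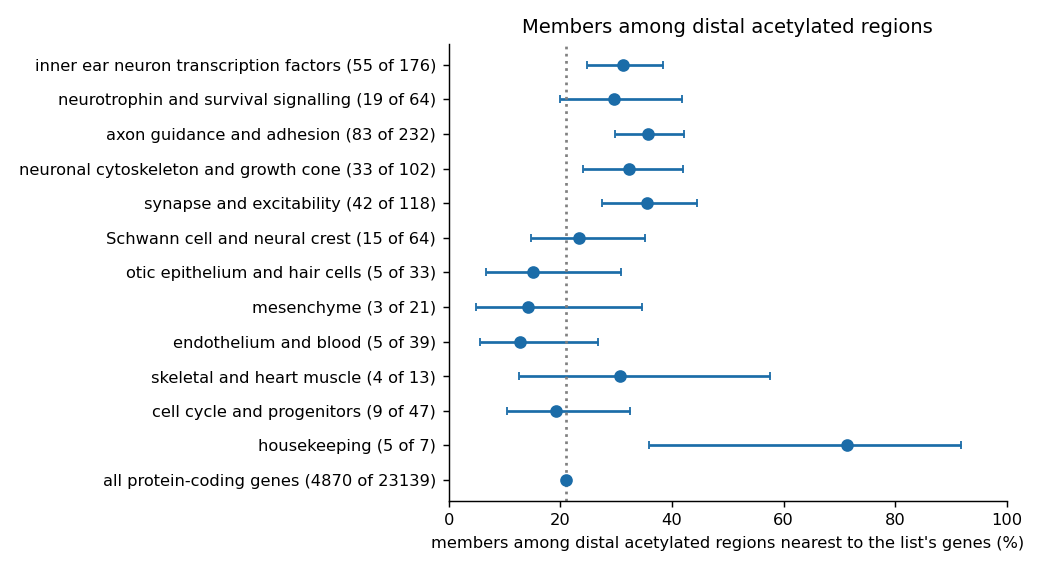
Points give the percent of members among members and distal H3K27ac regions without a factor nearest to the genes of each list. Bars are 95% Wilson intervals, counts are in brackets, and the dotted line is the 21.0% over all genes. The 5 neuronal lists lie from 29.7% to 35.8%, and the 7 others from 12.8% (endothelium and blood) to 30.8% (muscle) and 71.4% (housekeeping, of 7 regions).

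Genes of axon guidance and adhesion had the most members of the neuronal lists. Of these 40 genes, 27 were nearest to a member, and 83 of 232 regions were members (35.8%, 29.9 to 42.1). The gene count here (67.5%) and those of the lists below stand beside 12.6% of all genes and 15% to 30% in the 7 other lists. Median gene length was 213 kb here, 157 kb for synapse and excitability and 15.6 kb for the transcription factors, against 17.2 kb over all genes. Its bearing on the counts was not tested. Unc5b had 8 members and 6 regions without a factor, the semaphorin receptor gene Plxna2 7 and 4, Slit3, a repellent ligand, 6 and 18, and the netrin receptor gene Unc5c 5 and 4. The strongest at Plxna2 (chr1:194507564-194509246) lies 111 kb from the gene end, at percentiles 0.948 and 0.306 of ISL1_26 replicate 1 and ISL1_70 replicate 1, where its H3K27ac peaks stood only at percentiles 59.2 and 9.44. The strongest at Unc5c (chr3:141814411-141815384) is inside the gene, at percentiles 0.379 of ISL1_26 replicate 1, 2.04 of ISL1_70 replicate 2 and 0.298 of ISL1_70 replicate 3, and has no peak in ISL1_70 replicate 1.

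For transcription factors of inner ear neurons, 18 of 41 genes were nearest to a member, and 55 of 176 regions were members (31.2%, 24.9 to 38.4). The early B-cell factor genes led, with 11 members at Ebf1, 5 at Ebf2 and 5 at Ebf3, followed by Bcl11a with 4. Regions without a factor were more numerous at each, with 12 at Ebf1, 9 at Ebf2, 12 at Ebf3 and 12 at Bcl11a. At Ebf1, 6 members lay inside the gene and 5 beyond it, up to 396 kb away, and 1 had H3K4me3 replicate 2. The best of them (chr11:45123080-45124359) stood at percentiles 8.27, 1.76 and 1.15 of ISL1_26 replicate 1 and ISL1_70 replicates 1 and 3. The genes of the factors studied, chosen for naming after their values were seen, had 2 members each: those of Isl1 lay 186 and 442 kb away, and those of Pou4f1 4.12 and 251 kb away. No member was nearest to Neurog1 or Neurod1, the proneural genes of the ganglion, though Neurog1 had 1 and Neurod1 had 5 within 100 kb of the gene.

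For neurotrophin and survival signalling, 10 of 25 genes were nearest to a member, and 19 of 64 regions were members (29.7%, 19.9 to 41.8). Pik3r1, which encodes a regulatory subunit of PI3 kinase, had 4 members, the neurotrophin receptor gene Ntrk2 had 3 and Ntrk3, another receptor gene of that family, had 2. The regions without a factor numbered 4 at Pik3r1, 7 at Ntrk2 and 4 at Ntrk3. The strongest at Ntrk3 (chr7:78545748-78547312) lies inside the gene, at percentiles 4.48 and 11.6 of ISL1_26 replicate 1 and ISL1_70 replicate 1. Of the 3 at Ntrk2, the 1 outside the gene, 28.8 kb away (chr13:58775777-58777659), had H3K4me3 replicate 2 and stood at percentiles 35.5, 1.57 and 1.54 of ISL1_26 replicate 1 and ISL1_70 replicates 1 and 3.

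Of the genes of the neuronal cytoskeleton and growth cone, 12 of 26 were nearest to a member, and 33 of 102 regions were members (32.4%, 24.1 to 41.9). Ank3, which encodes the ankyrin of the axon initial segment, had 7 members, Map1b and Nefm 5 each and Kif5c, a kinesin gene, 3. The regions without a factor numbered 11 at Ank3, 2 at Map1b, 3 at Nefm and 5 at Kif5c. At Ank3 the member inside the gene at chr10:69756726-69757664 stood at percentiles 0.342 and 0.442 of ISL1_26 replicate 1 and ISL1_70 replicate 1, whereas the member at chr10:69746356-69746970 stood at 99.3 of ISL1_70 replicate 1 and 6.83 of ISL1_70 replicate 2. Members of one gene thus ranged from the strongest to the weakest ISL1 peaks. Nefm, a neurofilament gene, had its 5 members 22.7 to 115 kb away and none inside.

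For synapse and excitability, 13 of 36 genes were nearest to a member, and 42 of 118 regions were members (35.6%, 27.5 to 44.6). The splicing factor genes Rbfox3 and Rbfox1 had 8 and 6, Celf4 5 and the adhesion gene Nrxn3 4. Against these stood 23 regions without a factor at Rbfox3, 8 at Rbfox1, 10 at Celf4 and 2 at Nrxn3. All 8 members of Rbfox3 lay inside it, and 1 had H3K4me3 replicate 2. All 4 members of Nrxn3 lay inside the gene, 517 to 662 kb from its ends.

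The shares of the other lists ranged widely, the highest over few regions. Schwann cell and neural crest genes had 15 members of 64 regions (23.4%), led by Sox9 with 5, Zeb2 with 4 and Pax3 with 3, and these genes also act in progenitors and in other tissues. Regions without a factor numbered 10 at Sox9 and 15 at Zeb2, with none at Pax3. Of the members nearest to Zeb2, 1 lay inside it and the others 657 to 676 kb away. Otic epithelium and hair cell genes had 5 of 33 (15.2%), mesenchyme 3 of 21 (14.3%), endothelium and blood 5 of 39 (12.8%), 2 of them at Runx1, which is also in the list of neuronal factors. Muscle genes had 4 of 13 (30.8%, 12.7 to 57.6), and cell cycle and progenitor genes 9 of 47 (19.1%), with 4 nearest to Mki67. Those 4 lay 145 to 343 kb from Mki67, none inside a protein-coding gene, and 11 regions without a factor were nearest to it. Housekeeping genes had 5 of 7 (71.4%, 35.9 to 91.8), with 3 at Actb. Of the 3 at Actb, 2 had H3K4me3 replicate 2, and no region without a factor was nearest to it. All 3 lay under 1 H3K27ac replicate 2 peak, which was 5987 bp long.

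The members under the widest H3K27ac replicate 2 peaks had ISL1 peaks of very unlike rank. At Cxxc5 the H3K27ac peak was 18661 bp long, and the member stood at percentiles 71.1 of ISL1_26 replicate 1 and 49.1 of ISL1_70 replicate 3. At Spsb4, 2 members shared a peak of 11791 bp, the first (chr9:96980033-96981851) at percentiles 3.70 and 8.03 of ISL1_26 replicate 1 and ISL1_70 replicate 1 and the second (chr9:96981913-96984250) at 16.4, 4.82 and 5.09 of ISL1_26 replicate 1 and ISL1_70 replicates 1 and 2. The remaining 2 are those at Mir183.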

How the data were processed

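CUT&Tag peak lists of 14 libraries were used, 1 per library and not pooled. The peak names in the deposited files give MACS2 and a control, and the submitters' processing notes list FastQC, Bowtie2 and SEACR with the build mm10. The deposited columns hold the authors' fold enrichment of each peak summit (a ratio to a control library that is not given in the sources used here) and its −log10 p-value and −log10 q-value, as the authors made them. Read depth is unknown. Only the 19 autosomes and the sex chromosomes were kept; peaks were merged where they shared at least 1 bp and ranked by −log10 q within their list. Genes were 21887 protein-coding genes of the RefSeq table for GRCm38.p6, which is mm10 in its chromosomes. Shares have 95% Wilson intervals and cover counting error only. Tests were Fisher's exact tests, checked on simulated data, with Python 3.11.15, numpy 2.4.6, pandas 2.3.3, scipy 1.17.1 and matplotlib 3.10.9.

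The members and lists were chosen with earlier results of these data known. Named were the 10 strongest members in 3 lists and the 5 strongest in 2 lists by mean percentile, the 10 genes nearest to most members, up to 4 genes per gene list (1 of them is not reported here), the 3 regions on each side of the 1 kb limit and the 5 members under the widest H3K27ac replicate 2 peaks. The promoter windows shown are the 4 with the strongest ISL1 peaks, and none was taken from chromosome 18. Of the other classes, 3 follow the rule with 1 step changed (a POU4F1 replicate 1 peak, no H3K27ac, or within 1 kb of gene ends), and the H3K27ac regions without a factor are distal regions with H3K27ac in both lists, not H3K27me3 in both, and no peak of any ISL1 or POU4F1 list. The latter are merged H3K27ac peaks with the 1 kb limit on the whole region, whereas members are merged ISL1 peaks. Alternatives were a stricter q, a longer overlap, either POU4F1 list, a limit of 5 kb, summit windows, a width band and leaving out each ISL1, H3K27ac and H3K27me3 library. The acetylation bands, the split by annotated start, promoter motifs and the joined lists were chosen after seeing the data. No mm10 genome was used, so motifs at ISL1 summits were not analysed here.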

Additional observations from a re-analysis of the deposited data

How the results depend on the processing

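Over 15 settings, 299 of 318 recomputed odds ratios were within 1.5 times of their value and 19 were not. Of 10 that crossed 1, 2 belonged to called differences and 8 to differences that were not called, such as H3K4me3 replicate 1 against regions with POU4F1 (0.832, and 1.54 without H3K27me3 replicate 3). Leaving out 1 library in turn gave 2616 (without ISL1_26 replicate 1) to 6439 members (without H3K27ac replicate 3), and 2992 without ISL1_70 replicate 1. The odds ratio of H3K4me3 replicate 2 against regions with POU4F1 replicate 1 ran from 0.725 to 0.895 over these, and was 0.794 without either POU4F1 list. For lying inside a gene it ran from 1.15 to 1.24 against regions with POU4F1 (1.18 within the strongest 20% of H3K27ac replicate 2, adjusted p = 0.0704 by Fisher's exact test) and from 0.569 to 1.06 against H3K27ac regions without a factor, above 1 without H3K27ac replicate 2. The odds ratio of H3K27me3 replicate 1 against regions with POU4F1 ran from 0.669 to 1.05. The ratio of the member share at neuronal genes to that at all genes was 1.59, 1.49 to 1.89 with 1 library left out and 1.24 within the strongest 20%. The causes were not tested. H3K4me3 replicate 2 was at 5.49% of members beyond 5 kb from gene ends and at 5.69% of members narrowed to 100 bp around the summit, to each side. Motif windows of 50 bp were not run without a genome. No paired analysis was possible because the results come from peak lists of different antibodies, with no test over libraries. Read depth is unknown, so a missing peak is a peak not called, not an absent factor.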
